A study of Rattus norvegicus with 12 samples.

Results

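The Myc, Max and Mxd network is a set of transcription factors with a basic helix-loop-helix leucine zipper, all of which act as pairs. It was described here in F111 cells, a normal rat fibroblast line, by comparing Colony cells with A16 cells. The members were the probe sets of the array whose single gene symbol is Myc, Mycn, Mycl, Max, Mxi1, Mxd1, Mxd3, Mxd4, Mnt or Mlx. All 10 genes were on the array, with 13 probe sets of 31042 tested and 10 genes of 14217 named. Max, Mxi1 and Mlx have 2 probe sets each and the other members have 1, and every probe set is given below.

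Max is the shared partner of the network. Myc, Mycn and Mycl pair with Max, bind the E-box sequence CACGTG and drive genes of growth and division. Mxd1, Mxi1, Mxd3, Mxd4 and Mnt compete for Max at the same sequence and recruit Sin3 and histone deacetylases, which silence the target. Mlx is a Max-like factor that pairs with some Mxd proteins, with Mnt, and with the glucose-sensing factors Mlxip and Mlxipl. Myc is an early serum response gene in fibroblasts, and the Mxd genes are known for their expression when cells leave the cycle or differentiate.

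A16 cells were F111 cells kept adherent on plastic for 16 h. Colony cells descended from F111 cells that had spent 16 h in suspension (NA16) and then 7 days in soft agar, and the cells freed from the agar were allowed to attach for a short period before RNA was taken. All cells came from the same line and grew in the same medium with fetal calf serum. The paper also reports a translocated chromosome that was present in few A16 cells and in all colony cells studied. Adhesion, days of culture, passage through the agar and karyotype thus differ together between the groups and cannot be told apart. Each group had 3 arrays, and values below stand in the order of biological replicate 1, the technical array (replicate 2) and biological replicate 2. The technical array was averaged with biological replicate 1 so that n = 2 cultures per group. A source label of the Colony array of biological replicate 2 speaks of tumour formation, against its other labels, and the array stayed with Colony. The member probe sets that passed are therefore also given without it, as are many of the other results that passed, though not all.

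The 6 arrays had median RMA intensities from 97.6 to 101, and their number limits the precision. The fibroblast label was checked with 12 markers. RMA intensities do not reach 0, and the lowest of any probe set was 11.6 to 12.3 on these arrays. Dim markers such as Dcn (23.6 to 28.1) were therefore not shown to be expressed. The summed RMA intensity of the 12 markers was 81628 to 92260 in A16 arrays and 58074 to 62799 in Colony arrays. Of the 12, 6 were lower at an adjusted p under 0.05, 4 of them by more than 2-fold, among them Col1a1 and Fn1. Pdgfra was higher, by 0.55 on the log2 scale (limma adjusted p = 0.0232). Of 9 leukocyte markers, Csf1r alone rose, by 4.01 on the log2 scale, and Cd14 was lower at -0.56 (limma adjusted p = 0.0366). Without Csf1r, the sum of the other 8 was 1257 to 1410 in A16 and 924 to 1137 in Colony. Of 7 epithelial markers, Krt8 rose by 2.13 and Cdh1 by 0.74 (limma adjusted p = 0.00979), and the other 5 had an adjusted p above 0.05. The sum of the 7 went from between 939 and 1043 to between 3180 and 3934, while their median log2 FC was 0.007. A sum without Krt8 was not taken. The other probe set of Cdh1 was at 0.25 (limma adjusted p = 0.314). The lowest marker intensity in any array was 14.0. The part of these markers in the results on the network was not tested, and in a culture of mixed cells, fewer cells of a type and less RNA per cell cannot be told apart.

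The E-box CACGTG reads the same on both strands and was searched in the RefSeq promoter windows of assembly GRCr8, which run from 250 bases before a gene's start to 50 bases after it. Of 33469 windows, 6.42% hold it. Counted by gene, as the members and targets are here, 7.08% of 27457 genes hold it in any of their windows. Of the 8 members with a window, 4 hold it, and these are Max, Mxd4, Mnt and Mlx. The stretches around each E-box are shown since this is the sequence that the whole network reads. They run 5′ to 3′ on the strand of the gene, with the E-box in capitals. The first base of the motif lies 33 bases before the start of Max (chr6:101395268-101395373, minus strand), 197 before that of Mxd4 (chr14:80786534-80786639, plus strand), 123 before that of Mnt (chr10:60197786-60197891, plus strand) and 70 before that of Mlx (chr10:86519766-86519871, plus strand).
Max: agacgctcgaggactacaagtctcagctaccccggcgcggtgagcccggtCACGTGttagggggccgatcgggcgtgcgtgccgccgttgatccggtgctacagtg
Mxd4: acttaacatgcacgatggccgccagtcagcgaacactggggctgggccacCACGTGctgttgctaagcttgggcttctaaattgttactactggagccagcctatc
Mnt: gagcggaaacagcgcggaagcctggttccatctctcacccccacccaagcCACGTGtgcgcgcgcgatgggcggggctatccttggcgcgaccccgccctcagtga
Mlx: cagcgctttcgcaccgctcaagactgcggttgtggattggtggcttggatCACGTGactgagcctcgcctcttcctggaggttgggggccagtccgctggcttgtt
The windows of Mycl, Mxi1, Mxd1 and Mxd3 do not hold these letters. A match is a description of the sequence and not evidence of binding.

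The same search was made for the target lists that are described further down. The E-box is in the windows of 9 of 32 Myc-induced targets (28.1%), 1 of 8 Myc-repressed targets and 1 of 3 Mondo-Mlx targets. Targets are shown from the lists whose RNA is reported below, namely Srm, the spermidine synthase gene (chr5:164308779-164308884, plus strand, motif 173 bases before the start), Cdk4, the partner kinase of the D cyclins (chr7:64771203-64771413, plus strand, with 3 copies, the first 203 bases before the start), and Arrdc4, an arrestin of glucose uptake (chr1:131793547-131793652, minus strand, motif 177 bases before the start).
Srm: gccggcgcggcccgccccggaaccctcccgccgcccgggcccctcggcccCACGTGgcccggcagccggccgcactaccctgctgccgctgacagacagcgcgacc
Cdk4: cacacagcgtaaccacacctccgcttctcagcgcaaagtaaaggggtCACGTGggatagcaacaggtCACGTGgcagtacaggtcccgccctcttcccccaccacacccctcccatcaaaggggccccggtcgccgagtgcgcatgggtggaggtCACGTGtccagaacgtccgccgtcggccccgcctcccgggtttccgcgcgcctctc
Arrdc4: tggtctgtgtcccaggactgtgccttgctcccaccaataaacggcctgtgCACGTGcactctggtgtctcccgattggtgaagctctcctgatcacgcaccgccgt
All of these copies lie before the start of their gene.

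Across the network, 1 of the 2 Mxi1 probe sets rose by more than 2-fold in Colony cells and the other did not pass. Myc and Mxd4 were lower by less than 2-fold, and Mnt was higher by less than 2-fold. The size of the Mxd4 difference depended on which culture was left out. Mxd3 also passed lower, though not under most other settings. The probe sets of Max went in opposite directions. Differences are given as log2 fold change (FC) of Colony against A16 from limma, with its standard error (SE) and an adjusted p over all probe sets. A probe set passed with an adjusted p under 0.05 and was called with a fold over 2 as well. Of the 13 probe sets, 1 was called higher, where 4.0% of all probe sets were, and 0 were called lower, where 5.81% were. At any fold, limma passed 3 higher and 4 lower, where 11.4% and 11.3% of all probe sets passed. The 0 called lower was also the count of the methods' test on the cultures at an unadjusted p under 0.05. In that test 3 of the 13 were lower at any fold, and 2941 of all 31042 probe sets were. The median log2 FC of the 13 probe sets was -0.06, and that of all probe sets was 0.05.

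The RMA intensities of the 2 groups did not overlap for 11 of the 13 probe sets, with the Colony arrays above for 4 and below for 7. Of all probe sets, 45.9% were apart in the same way. For 10 of the 13 the PLIER intensities of the same arrays were apart too. The share of all probe sets apart in both summaries was not counted, so this is a description only. Without Colony replicate 2, the probe sets that passed higher were at 1.46 (Mxi1 1372093_at), 0.68 (Mnt) and 0.62 (Max 1372090_at) on the log2 scale. Those that passed lower were at -0.77 (Myc), -0.84 (Mxd4), -0.44 (Mxd3) and -0.52 (Max 1387646_a_at). Not all of them passed in that fit, as is given for each below.

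**Figure D1:**
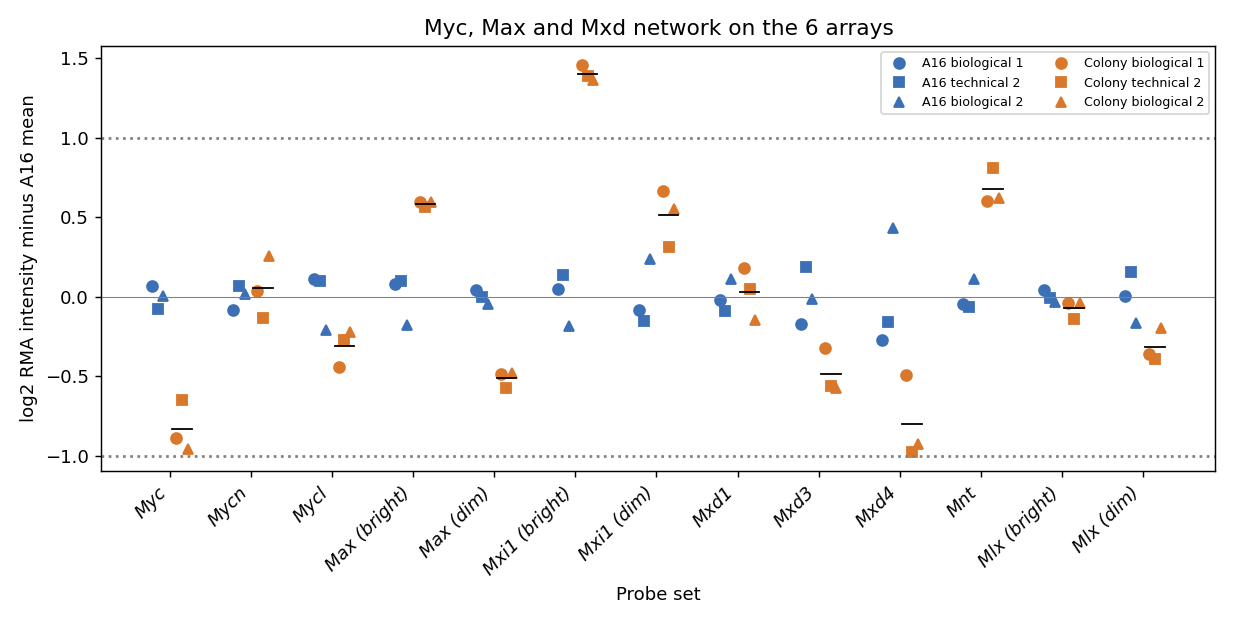
Log2 RMA intensity on each array, set against the A16 mean of the probe set at 0, for the 13 network probe sets, with A16 arrays in blue, Colony arrays in orange, a black bar at the mean of the 3 Colony arrays and dotted lines at 2-fold. For Max, Mxi1 and Mlx, bright and dim stand for the probe sets of higher and lower mean intensity. The groups overlap for Mycn and Mxd1 and are apart for the other 11, with the widest gap at Mxi1 (bright), which is 1372093_at.

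Myc, the member that drives growth genes in most dividing cells, was lower in Colony cells in each array. Its probe set 1368308_at read 1154, 1044 and 1102 in A16 and 593, 702 and 566 in Colony, so that every Colony array was below every A16 array. On the log2 scale the cultures were at 10.10 ± 0.0041 (SD, n = 2) in A16 and 9.24 ± 0.13 (SD, n = 2) in Colony. The log2 FC was -0.86 (SE 0.14, 95% interval -1.19 to -0.54, limma adjusted p = 0.00509), a difference of 1.82-fold that passed the test but not the fold threshold. It passed in each of the 4 fits that left out a culture, with log2 FC from -0.96 to -0.77, the latter without Colony replicate 2 (adjusted p = 0.0257).

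Mycn and Mycl, the relatives of Myc known from neural and lung tissue, did not pass. The Mycn probe set 1376648_at was dim, at a mean percentile of 19.4 among all probe sets. It read 31.1, 34.4 and 33.4 in A16 and 33.7, 30.0 and 39.4 in Colony, with groups that overlapped. Its log2 FC was 0.10 (SE 0.15, 95% interval -0.26 to 0.46, limma adjusted p = 0.712). The Mycl probe set 1395781_at read 150, 149 and 121 in A16 and 102, 115 and 120 in Colony, so that the lowest A16 array and the highest Colony array nearly met. The log2 FC of Mycl was -0.24 (SE 0.16, 95% interval -0.61 to 0.14, limma adjusted p = 0.353). The intervals reach 0.46 for Mycn and -0.61 for Mycl, so equal levels were not shown.

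Max, the partner of the Myc and Mxd proteins and of Mnt, gave opposite answers from its probe sets. The probe set 1372090_at, designed on a GenBank sequence that is no RefSeq mRNA, read 2370, 2399 and 1986 in A16 and 3395, 3312 and 3383 in Colony, with every Colony array above. Its log2 FC was 0.63 (SE 0.14, 95% interval 0.29 to 0.97, limma adjusted p = 0.0215), or 1.55-fold. The probe set 1387646_a_at, designed on the RefSeq mRNA, read 585, 567 and 551 in A16 and 406, 381 and 407 in Colony, with every Colony array below. There the log2 FC was -0.49 (SE 0.13, 95% interval -0.80 to -0.19, limma adjusted p = 0.0330), or 1.41-fold in the other direction.

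The log2 FC of 1372090_at exceeded that of 1387646_a_at by 1.12. An exact permutation test over the cultures, 2 against 2, gave p = 0.333 for this difference, two-sided, which is the smallest value that design allows. Averaged over both probe sets, Max had a log2 FC of 0.07 (limma adjusted p = 0.762), so no direction is given for the gene. The first probe set kept its direction but did not pass with PLIER with nothing added (0.58, adjusted p = 0.0503), without A16 replicate 2 (0.50), without Colony replicate 1 (0.64) or without Colony replicate 2 (0.62, adjusted p = 0.0766). The second, 1387646_a_at, did not pass in any of the 4 fits that left out a culture, with log2 FC from -0.53 to -0.46 and -0.52 without Colony replicate 2. It passed in 7 of the 11 other settings that kept every culture, with log2 FC from -0.52 to -0.41 and limma adjusted p up to 0.110. Among those where it did not pass was PLIER as log2(value + 16) (-0.41, adjusted p = 0.0726).

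Mxi1, a repressor that pairs with Max and recruits Sin3, was the member with a probe set called higher. Its probe set 1372093_at, which is not designed on a RefSeq mRNA, read 739, 783 and 627 in A16 and 1953, 1860 and 1835 in Colony, and the lowest Colony array was far above the highest A16 array. The cultures went from 9.43 ± 0.20 to 10.87 ± 0.038 (SD, n = 2 each) on the log2 scale. This is a log2 FC of 1.44 (SE 0.15, 95% interval 1.09 to 1.79, limma adjusted p = 0.000932), or 2.71-fold. It passed in all 4 fits that left out a culture, from 1.30 to 1.58, with 1.46 (adjusted p = 0.00430) without Colony replicate 2.

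The RefSeq mRNA probe set of Mxi1, 1368963_at, read 261, 249 and 325 in A16 and 439, 344 and 405 in Colony, with the groups apart in the same direction by a smaller gap. Its log2 FC of 0.46 (SE 0.16, 95% interval 0.09 to 0.84) did not pass (limma adjusted p = 0.0847), though it did without A16 replicate 2 (0.64). The log2 FC of the 2 Mxi1 probe sets differed by 0.97, and the exact permutation test over cultures again gave p = 0.333, two-sided, the smallest possible. Averaged over both probe sets, Mxi1 was higher by 0.95 on the log2 scale, which passed but lies under the fold threshold.

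Among the other Mxd repressors, Mxd4 was lower, Mxd3 passed narrowly and Mxd1 did not pass. Mxd4 (1374085_at) read 327, 353 and 531 in A16 and 280, 201 and 207 in Colony, with the groups apart but A16 replicate 2 well above the other A16 arrays. Mxd4 had a log2 FC of -0.94 (SE 0.22, 95% interval -1.47 to -0.41, limma adjusted p = 0.0242), or 1.92-fold. Without A16 replicate 1 it was -1.26 and called, and without A16 replicate 2 it was -0.62 and did not pass. It did not pass without Colony replicate 1 (-1.03) or without Colony replicate 2 (-0.84, adjusted p = 0.0971) either, nor with the technical arrays left out (-0.79).

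Mxd3, the member known for expression in S phase of dividing cells, was measured by 1370416_at. The readings were 156, 201 and 175 in A16 and 141, 120 and 119 in Colony, groups that were apart by a narrow gap. For Mxd3 the log2 FC was -0.50 (SE 0.13, 95% interval -0.81 to -0.19, limma adjusted p = 0.0333), or 1.42-fold. It did not pass in any of the 4 fits that left out a culture (-0.57 to -0.44, and -0.44 without Colony replicate 2 with an adjusted p of 0.141), and it passed in 4 of the 11 other settings that kept every culture, with log2 FC from -0.64 to -0.35 and adjusted p up to 0.207. Mxd1, a repressor linked to terminal differentiation, was measured by 1376077_at at 195, 186 and 213 in A16 and 224, 204 and 179 in Colony. The groups overlapped, and the log2 FC was -0.04 (SE 0.15, 95% interval -0.40 to 0.32, limma adjusted p = 0.891), with a sign that changed between settings.

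Mnt, the broadly expressed Max partner that opposes Myc, was higher in Colony cells. The probe set 1375929_at read 288, 283 and 320 in A16 and 451, 520 and 457 in Colony, with every Colony array above every A16 array. The cultures were at 8.24 ± 0.12 and 8.88 ± 0.059 (SD, n = 2 each) on the log2 scale. The log2 FC of 0.64 (SE 0.13, 95% interval 0.32 to 0.96, limma adjusted p = 0.0160), or 1.56-fold, passed the test but not the fold threshold. Without Colony replicate 2 it was 0.68 (adjusted p = 0.0465), and it did not pass without A16 replicate 1 (0.56) or without Colony replicate 1 (0.60).

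Mlx, the Max-like partner, did not pass with either probe set. The first, 1371929_at, read 1662, 1608 and 1580 in A16 and 1574, 1469 and 1573 in Colony, which are close to each other although they do not overlap. Its log2 FC was -0.06 (SE 0.13, 95% interval -0.36 to 0.25, limma adjusted p = 0.817). The second, 1385443_at, read 1542, 1712 and 1370 in A16 and 1197, 1169 and 1339 in Colony, with a log2 FC of -0.25 (SE 0.15, 95% interval -0.60 to 0.11, limma adjusted p = 0.313). Their log2 FC differed by 0.19, smaller than the 1.12 of Max and the 0.97 of Mxi1.

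**Figure D2:**
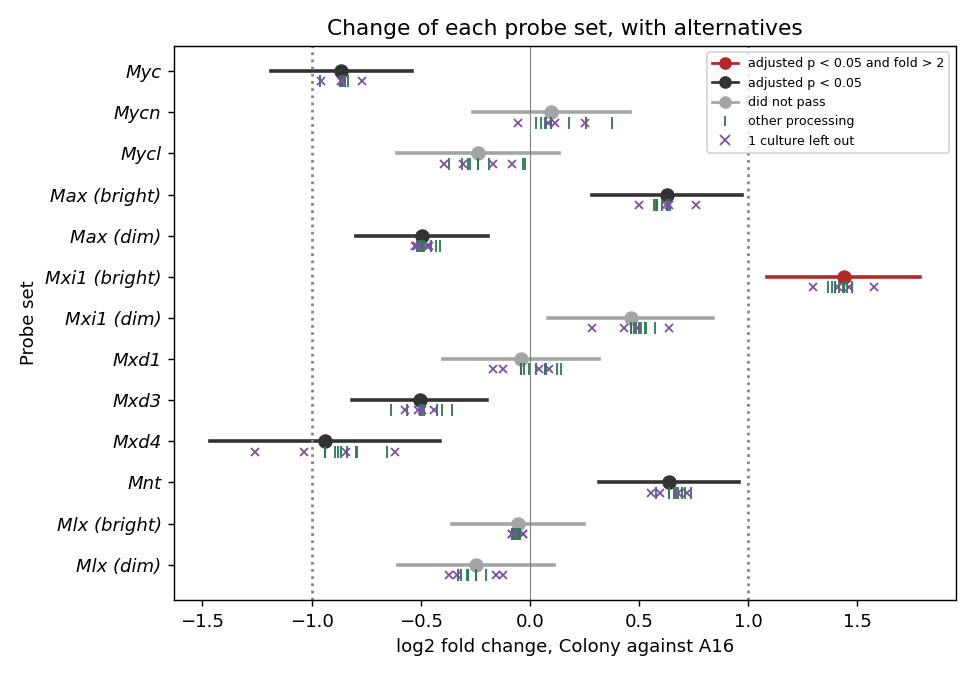
Log2 FC of Colony against A16 for each of the 13 network probe sets, with 95% intervals from limma on n = 2 cultures per group, dotted lines at 2-fold, green ticks for the values under other processing and purple crosses for the fits that left out a culture. Points are red where called, black where passed and grey otherwise. Mxi1 (bright) at 1.44 lies beyond the threshold, Mxd4 at -0.94 and Myc at -0.86 lie inside it, and the points of the 2 Max probe sets fall on opposite sides of 0.

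Ordered by log2 FC, the probe sets that passed ran from Mxd4 and Myc at the low end, through Mxd3 and Max 1387646_a_at, to Max 1372090_at, Mnt and Mxi1 1372093_at at the high end. The 95% intervals of Mxd4 and Myc overlap, as do those of Myc and Mxd3, those of Mxd3 and Max 1387646_a_at overlap, and those of Max 1372090_at and Mnt overlap, while that of Mxi1 1372093_at lies above those of all the others. The members lie on 8 chromosomes of GRCr8. Over the genes of each of these chromosomes the median log2 FC was between 0.01 and 0.14, and on chromosome 7, which holds Myc, it was 0.02 over 895 genes. The karyotypes of the paper list a gain of chromosome 7 in most colony metaphases and in few A16 ones. The part of copy number in these values was not tested.

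Myc lies on chromosome 7 between A1bg and Pvt1 in the order of the genes with a probe set. Pvt1, a long non-coding RNA gene next to Myc, rose. Its probe set 1384449_at read 970, 974 and 887 in A16 and 2926, 2838 and 2536 in Colony, with every Colony array above. The log2 FC of Pvt1 was 1.54 (SE 0.14, limma adjusted p = 0.000554), or 2.91-fold, and 1.63 without Colony replicate 2. On the same chromosome stretch Myc was at -0.86, so the 2 neighbours went in opposite directions, each with groups that did not overlap.

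On the other side of Myc, A1bg, a plasma glycoprotein gene, was at 0.04 (limma adjusted p = 0.876). Trib1, a pseudokinase gene that helps to degrade transcription factors, was at -0.88 (limma adjusted p = 0.0283) and did not pass without A16 replicate 2 (-0.59) or without Colony replicate 2 (-0.73). The 2 other probe sets of Trib1 were at -0.94 (limma adjusted p = 0.00751) and 0.15 (0.500). Nsmce2, a SUMO ligase gene, was at -0.18 (limma adjusted p = 0.529). Beyond Pvt1, Cyrib and Asap1, which act on the actin cytoskeleton, were at -0.03 (0.909) and 0.11 (0.723), with the other Cyrib probe set, 1377043_at, higher at 0.50 (limma adjusted p = 0.0460, and 0.38 without Colony replicate 2, where it did not pass). Another Asap1 probe set, 1380545_at, fell by 1.94 on the log2 scale (limma adjusted p = 0.0133) but did not pass without Colony replicate 1 (-1.68).

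**Figure D3:**
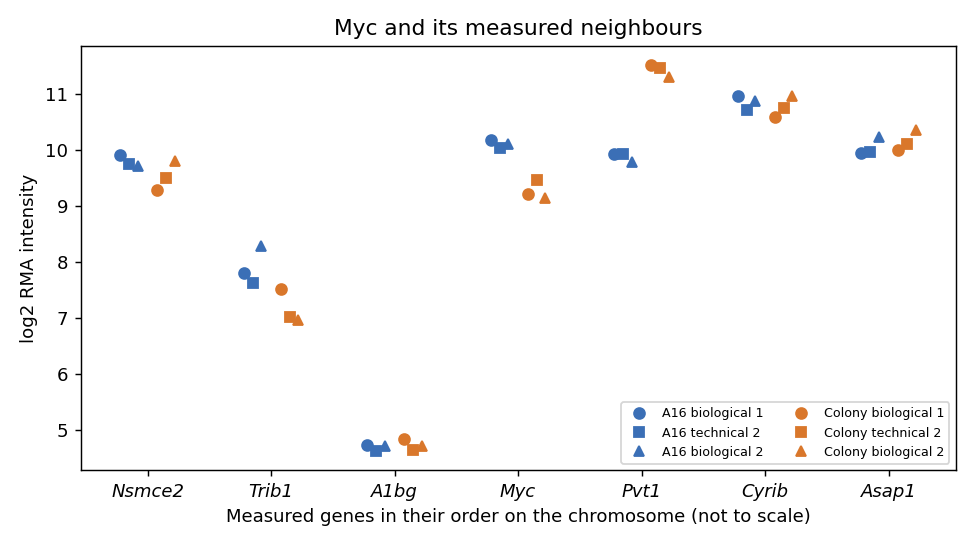
Log2 RMA intensity on each of the 3 A16 arrays (blue) and 3 Colony arrays (orange) for Myc and the 3 nearest genes with a probe set on either side of it on chromosome 7, in genomic order and not to scale in distance. The Colony arrays lie below the A16 arrays for Myc and Trib1 and above them for Pvt1, and the groups overlap for the other 4 genes. Levels of different genes in this plot are of different probe sets and are not comparable.

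The genes whose profile over the 6 arrays was closest to that of Myc were sought by Euclidean distance between log2 RMA profiles centred on their means. They were Nol4l (distance 0.112), Casz1 (0.169), Dclk1 (0.175) and Tmem120a (0.175), with log2 FC of -0.92, -0.81, -0.88 and -0.80. Casz1 is a zinc finger factor, Dclk1 a microtubule-linked kinase and Tmem120a a membrane protein of the nuclear envelope. Their other probe sets did not all have the same change, and those of Dclk1 ran from -1.63 to 0.03. For Mxi1 1372093_at the closest were Stk39 (0.0553), Tmem64 (0.134), Slc30a4 (0.162) and Camkmt (0.174), which rose by 1.48, 1.40, 1.45 and 1.34. Stk39 is a kinase of ion transport, Slc30a4 a zinc exporter and Camkmt a calmodulin methyltransferase. The other probe set of Stk39 was at 0.37 (limma adjusted p = 0.256). All 8 of these genes also passed without Colony replicate 2. The choice used these same arrays, so the likeness is a description only.

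The genes around the network were read from fixed lists, each gene standing by its probe set with the highest mean intensity, its brightest. Of all 14217 genes read in this way, 4.36% were called higher and 4.75% called lower, 12.9% passed higher and 10.8% passed lower, and the median log2 FC was 0.05. By the same rule 3 of the 10 members passed higher (Max, Mxi1 and Mnt) and 3 passed lower (Myc, Mxd3 and Mxd4).

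Of the 17 network partners and cofactors, 1 was called lower, 1 passed higher and 3 passed lower, with a median log2 FC of -0.16. Hdac1, a histone deacetylase carried by Sin3, fell. Its intensity was 2858, 3012 and 3117 in A16 and 1037, 1284 and 1682 in Colony, every Colony array being lower, with a log2 FC of -1.12 (limma adjusted p = 0.00771). It was -1.39 without Colony replicate 2 and -0.85, under the fold threshold, without Colony replicate 1. Its other probe set was at -0.21 (limma adjusted p = 0.307), so the size for the gene depends on the probe set. Kat2a, an acetyltransferase brought in by Myc, was at -0.66 (limma adjusted p = 0.0219), and Wdr5, which anchors Myc to chromatin, at -0.48 (0.0458). Neither passed without A16 replicate 2 (-0.54 for both) or without Colony replicate 2 (-0.56 and -0.55), and Wdr5 did not pass without the other cultures either.

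Ncor1, a corepressor, was at 0.67 by its brightest probe set (limma adjusted p = 0.0194), while its 2 other probe sets were at -0.60 (0.0152) and -1.65 (0.0321), the last of which was called lower but reached -0.92 without Colony replicate 1. The brightest did not pass without A16 replicate 1 (0.58) or without Colony replicate 2 (0.55). Mga, a Max partner that opposes Myc, was at -0.24 (0.483) by its brightest probe set and at -1.82 (limma adjusted p = 0.00296) by 1385408_at, which was called lower. Sin3a, the scaffold of Mxd repression, was at 0.40 (0.149), with another probe set, 1392269_at, called lower at -1.04 (limma adjusted p = 0.0281) that did not pass without A16 replicate 2 (-0.64), Colony replicate 1 (-0.94) or Colony replicate 2 (-1.14). Sin3b, its relative, was at -0.22 (0.327). The partners of Mlx did not pass, with Mlxip at 0.25 (0.227) and Mlxipl at -0.04 (0.930).

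Among 12 of 15 regulators of the Myc protein that had a probe set with a single symbol, 0 were called by limma, since none reached 2-fold, 2 passed higher and 1 passed lower at any fold, with a median of -0.09. Skp2, the ubiquitin ligase subunit, has no such probe set. The highest were Usp28, a deubiquitinase that stabilises Myc, at 0.78 (limma adjusted p = 0.0155), and Ppp2r5a, a subunit of the phosphatase that acts on Myc, at 0.77 (0.00842). Ppp2r5a passed in all 4 fits without a culture, and its other probe set was at 0.12 (0.689), while Usp28 did not pass without A16 replicate 2 (0.63) or Colony replicate 1 (0.66). Gsk3b, the kinase that marks Myc for degradation, was at -0.69 (0.0151) and did not pass without A16 replicate 2 (-0.59) or Colony replicate 2 (-0.61). Fbxw7, the ubiquitin ligase that reads this mark, was at -0.59 (0.0722) with 122, 107 and 94.8 in A16 and 76.4, 86.2 and 59.2 in Colony. Without Colony replicate 1 its log2 FC was -0.81. Fbxw7 passed under some other settings, among them 6 arrays as separate samples (-0.56, limma adjusted p = 0.0235). That setting counts the technical arrays as independent cultures, so its p-values are too small.

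Of 33 measured Myc-induced targets, 3 were called lower, 15 passed lower and 0 passed higher, and the median log2 FC was -0.48, with 28 of the 33 below 0. Ccnd2, the gene of cyclin D2, fell most. It read 2006, 1765 and 1288 in A16 and 76.9, 65.2 and 62.0 in Colony, a log2 FC of -4.55 (SE 0.20, limma adjusted p = 3.22e-05) or 23.5-fold. Srm, whose promoter E-box is shown above, went from 2042, 2439 and 2704 to 1136, 865 and 795, a log2 FC of -1.47 (limma adjusted p = 0.00151) or 2.77-fold. Cdc25a, a phosphatase that starts DNA replication, was at -1.18 (0.00491), while its other probe set was at 0.09 (0.711), and with PLIER as log2(value + 16) it was at -0.96, under the fold threshold. Without Colony replicate 2 Ccnd2 and Srm remained called, Cdc25a was at -0.99 and under the fold threshold, and 7 targets passed lower. Without the other cultures 10 to 12 did.

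Other Myc-induced targets passed under the fold threshold. Cdk4, with 3 E-boxes in its window, read 6733, 6587 and 7016 in A16 and 5332, 3543 and 3446 in Colony, with Colony replicate 1 well above the other Colony arrays. Its log2 FC was -0.82 (limma adjusted p = 0.0107), and it passed in all 4 fits without a culture, as did Cad, but not with the technical arrays left out (-0.68, adjusted p = 0.0889). Cad, the first enzyme of pyrimidine synthesis, was at -0.86 (0.00851) and its other probe set was called lower at -1.91 (limma adjusted p = 0.00779). Of the nucleolar and ribosome assembly genes of the list, Bop1 at -0.81, Nolc1 at -0.79, Rrp9 at -0.77 and Nop56 at -0.54 passed lower, while Fbl at -0.26, Nop58 at -0.18, Ddx18 at -0.02, Polr1b at -0.03 and Wdr43 at -0.34 did not pass. The purine synthesis genes Ppat at -0.80 and Gart at -0.72 passed lower. These 6 genes that passed did not pass without Colony replicate 2, where they were between -0.78 and -0.51. Other probe sets of these genes gave other answers. Ddx18 1397508_at was called lower at -2.16 (limma adjusted p = 0.000997), and Wdr43 1382679_at passed lower at -0.69 (0.0215). Nop56 1395998_at and Nolc1 1368033_at were called lower at -1.38 and -1.67. Nolc1 1368031_at at -0.16, Nolc1 1382893_at at -0.17 and Gart 1390787_at at -0.23 did not pass. For these 5 genes the result thus depends on the probe set.

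Not every classical Myc target was lower. Odc1, the first enzyme of polyamine synthesis, read 5130, 5218 and 5620 in A16 and 7267, 6944 and 7446 in Colony, with every Colony array above. Its log2 FC was 0.43 and did not pass (limma adjusted p = 0.0573). With 6 arrays as separate samples it passed (0.44, limma adjusted p = 0.00620), but there the technical arrays count as independent cultures. Srm, in the same pathway, fell. Ncl, the gene of nucleolin, was at -0.49 (limma adjusted p = 0.120) and at -0.74 without Colony replicate 2. Ncl passed with 6 arrays as separate samples (-0.54), with the same limit as for Odc1. Tert, the telomerase reverse transcriptase, was at 0.00 (limma adjusted p = 0.987). The Tert probe set was dim, at 35.2 to 43.1 over the arrays, so this value says little about the gene.

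Genes known to be repressed by Myc were lower too where they passed. Of 11 measured, 3 were called lower, 5 passed lower and 0 passed higher, with a median of -0.73. Gadd45a and Gadd45b, stress genes that slow the cycle, fell 5.11-fold and 4.01-fold, with log2 FC of -2.35 (limma adjusted p = 0.000162) and -2.0 (0.000137). Cdkn1a, the cell cycle inhibitor p21, went from 1405, 1613 and 2193 to 915, 765 and 592, a log2 FC of -1.37 (limma adjusted p = 0.00738). All 3 remained called without Colony replicate 2. Cdkn2b, an inhibitor of Cdk4, was at -0.95 (0.0166), and it did not pass without Colony replicate 2 (-0.85), while it was called without A16 replicate 1 (-1.22) and Colony replicate 1 (-1.04). Cdkn1b, the inhibitor p27, was at -0.18 (0.379), with its other probe set at -0.91 (limma adjusted p = 0.00603). Thus the median of the list of induced targets and that of the list of repressed targets were both below the median of all genes.

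Of the 8 targets of the Mondo proteins, Mlxip and Mlxipl, with Mlx, 2 were called lower and 1 passed higher, and the median was 0.16. Txnip, an inhibitor of glucose uptake, read 1845, 1754 and 1293 in A16 and 528, 589 and 632 in Colony. Txnip had a log2 FC of -1.36 (limma adjusted p = 0.00300), or 2.57-fold. Arrdc4, a relative of Txnip with an E-box in its window, read 110, 124 and 97.2 in A16 and 41.0, 44.8 and 46.8 in Colony, with a log2 FC of -1.25 (limma adjusted p = 0.00168), or 2.38-fold. For both every Colony array was below every A16 array, and both remained called without Colony replicate 2. With PLIER as log2(value + 16) Arrdc4 was at -0.95 (adjusted p = 0.00721), under the fold threshold, and Txnip at -1.68. Acaca, a fatty acid synthesis gene, was at 0.62 (0.0164) and its other probe set at -0.85 (0.0581). The former passed in 1 of the 4 fits without a culture, so no direction is given for Acaca.

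Of 17 measured cell cycle genes, 1 was called lower, 2 passed higher and 5 passed lower, with a median of -0.29. The gene called was Tk1, a thymidine kinase of S phase, at -1.0 (limma adjusted p = 0.00345), next to the threshold, and 0 were called without A16 replicate 2 (-0.90) or Colony replicate 2 (-0.92). Mki67, a marker of dividing cells, was at 0.59 (0.0212) and Bub1, a spindle checkpoint kinase, at 0.56 (0.0239), and neither passed without Colony replicate 2 (0.65 and 0.49), A16 replicate 2 (0.52 and 0.59) or Colony replicate 1 (0.54 and 0.62). Birc5 and Aurkb, which act in mitosis, were at -0.81 (0.00573) and -0.70 (0.0124), of which Aurkb did not pass without Colony replicate 1 (-0.61).

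**Figure D4:**
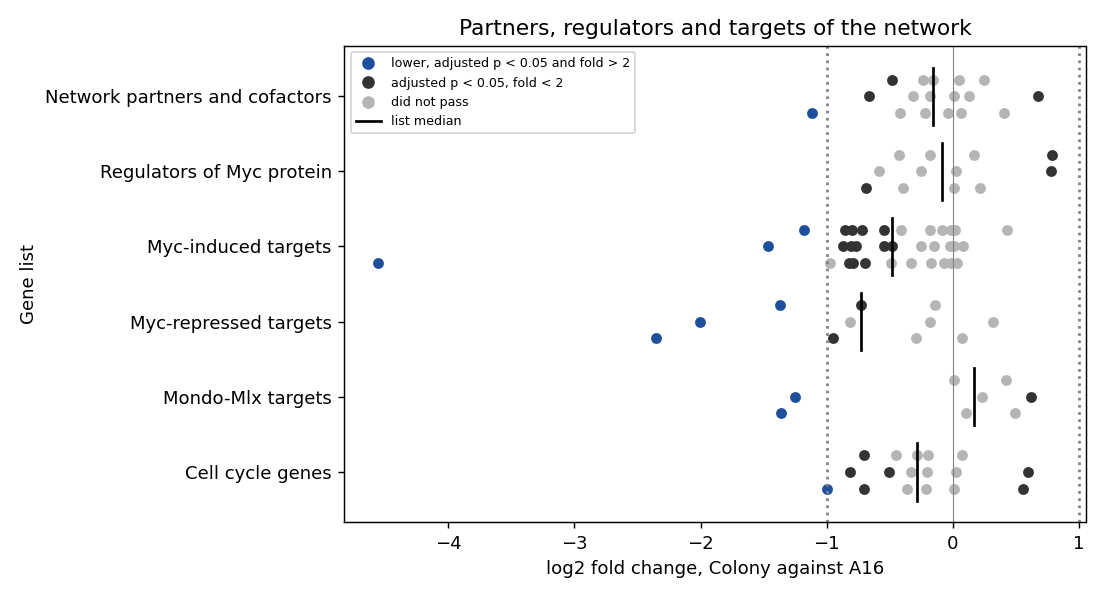
Log2 FC of Colony against A16 for every measured gene of the 6 lists around the network, each point a gene by its brightest probe set, blue where called, black where passed under 2-fold and grey otherwise, with the median of each list as a bar and dotted lines at 2-fold. The vertical offset within a list has no meaning. The medians of the Myc-induced and Myc-repressed lists, -0.48 and -0.73, lie below the median of all genes at 0.05, and the lowest point, Ccnd2, is at -4.55.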

How the data were processed

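Total RNA of F111 cells was hybridised by the authors to Affymetrix Rat 230 2.0 arrays. Scans were read by the authors in GeneChip Operating Software, and Avadis gave an RMA and a PLIER summary of every probe set (versions: not given in the sources used here). Both summaries were deposited as linear intensity. Groups came from the sample labels, which call the replicates biological but give no scan date or slide. The NA16 and tumour arrays of the study were not used here.

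From these values log2 of RMA was taken with nothing added. The 57 control probe sets of 31099 were set aside, and limma 3.58.1 (lmFit, eBayes; R 4.3.3) was run on the other 31042, with Benjamini-Hochberg adjustment over all of them. All adjusted p-values are from limma. Figures were drawn with Python 3.11.15 and matplotlib 3.10.9. The script was tested on simulated data. The array annotation gives 20826 probe sets 1 symbol, 436 several and 9780 none, and 20758 symbols were updated by gene ID through RefSeq of GRCr8, which also gave the promoter sequences and gene order. Myc and Mycn have no window in the promoter table. Levels of different probe sets were not compared.

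The members and the lists were chosen with earlier results of these data known. Named were every member probe set, up to 4 called genes per list and a few fixed genes, the 4 genes most like Myc and Mxi1, and the 3 neighbours of Myc on either side. List genes under the fold threshold, marker genes and other probe sets were named after their values were seen. The technical array has no stated culture and was put with biological replicate 1. With 2 cultures per group and prior degrees of freedom of 4.76, p-values measure the spread between these cultures. Same-numbered A16 and Colony cultures had deviations with a correlation of -0.15. Alternatives were PLIER, other uses of the technical arrays, a replicate block, a filter on dim probe sets, other scalings, the mean over probe sets, the methods' t-test, and leaving out each culture.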

Additional observations from a re-analysis of the deposited data

How the results depend on the processing

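For single network probe sets, 171 of the values recomputed under other settings kept their direction and their side of the threshold, 39 kept the direction but no longer passed, 4 passed newly and 9 changed sign; Myc and Mxi1 1372093_at passed in all 11 limma alternatives that kept every culture, and Mnt too. Where a culture was left out, its group had 1 left, and the spread was that of the opposite group. The cause of the differences below was not tested. The log2 FC of Mxd1 changed sign to 0.029 with 6 arrays as separate samples (limma and the methods' t-test), to 0.13 with PLIER as log2(value + 16), to 0.14 with PLIER with nothing added, to 0.068 with quantile normalization and to 0.073 with technical arrays averaged with replicate 2. Over the fits without a culture Mxd1 ran from -0.17 (without Colony replicate 1) to 0.088 (without Colony replicate 2), and Mycn from -0.054 (without Colony replicate 2) to 0.25 (without Colony replicate 1).

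Network probe sets that passed lower numbered 2 with either PLIER scale, 2 with the replicate block, 2 with the methods' t-test on 6 arrays after Benjamini-Hochberg and 1 with technical arrays left out. Of all 31042 probe sets, 3511 passed lower in the results above. With PLIER as log2(value + 16) 3461 did, and with PLIER with nothing added 3357. With the replicate block 3604 did, with that t-test 3120 and with technical arrays left out 2857. With the methods' t-test on cultures after Benjamini-Hochberg, 0 were called higher, 0 passed higher and 0 passed lower, as for all probe sets, of which 1070 were called higher and 1313 lower at an unadjusted p. With the mean over all probe sets of a gene, 0 member genes were called higher, where 458 of all 14217 genes were. With the replicate block, 1254 of all probe sets were called higher and 1867 lower, and with a crossed pairing, chosen after seeing the data, 1256 and 1879; 1 network probe set was called higher under both. With 2 cultures per group the numbers do not show a pairing.

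Lists moved as follows. These counts, and those of the fits without a culture below, are not set beside those of all genes or probe sets under the same setting. They are not read as results about the members or lists. The setting of 6 arrays as separate samples counts the technical arrays as independent cultures. With 6 arrays as separate samples, passed higher were 2 partners, 1 induced target and 2 Mondo-Mlx targets, passed lower 4 regulators and 9 cell cycle genes, and 0 cell cycle genes were called lower, as was also the case with both PLIER scales, culture as a random block, the mean over probe sets, quantile normalization and technical arrays averaged with replicate 2. With PLIER as log2(value + 16) 1 Mondo-Mlx target was called lower, and with PLIER with nothing added 1 cell cycle gene passed higher. With culture as a random block 3 regulators passed lower and 1 induced and 2 Mondo-Mlx targets passed higher. With the mean over probe sets 0 partners were called lower, 0 passed higher and 5 passed lower, 2 regulators passed lower and 1 induced target passed higher. Quantile normalization gave 1 induced target that passed higher, and the replicate block 2 regulators that passed lower. With technical arrays averaged with replicate 2, passed higher were 2 partners, 1 induced, 1 repressed and 2 Mondo-Mlx targets, and 3 regulators passed lower. With technical arrays left out, passed lower were 1 partner, 9 induced targets and 3 cell cycle genes, and 0 cell cycle genes passed higher.

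Over the 4 fits without a culture, network probe sets called higher stayed at 1, called lower ran from 0 to 1 (Mxd4, without A16 replicate 1), passed higher from 1 to 3 and passed lower from 1 to 2. For partners these were called lower 0 to 1, passed higher 0 to 1 and passed lower 1 to 2. For regulators passed higher ran from 1 to 2 and passed lower from 0 to 2. For induced targets called lower ran from 2 to 5 and passed lower from 7 to 12, and for repressed targets from 3 to 5 and from 3 to 6. For Mondo-Mlx targets called lower was 2, passed higher 0 to 1 and passed lower 2, and for cell cycle genes called lower 0 to 1, passed higher 0 to 1 and passed lower 3 to 4.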
